A study of Mus musculus with 6 samples.

Results

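The 9 genes described here encode proteins that build, cross-link or fold the thick filament of the sarcomere, and were chosen by name: Ttn, Myom1, Myom2, Myom3, Mybpc1, Mybpc2, Mybph, Smyd1 and Unc45b. All 9 of the 9 symbols were present among the 21778 genes of the deposited table. They were followed in poly(A) RNA libraries of Hdac11-/- (KO, 3 libraries) and wild-type (WT, 3 libraries) primary myoblasts on the C57BL/6 background, sorted from hindlimb muscle for alpha7-integrin and CD34 and collected after 24 h in medium with 2% horse serum, which lets myoblasts stop dividing and begin to fuse. The KO allele lacks the floxed exon 3 of Hdac11 throughout the body, since the Cre was driven from the Sox2 promoter, and WT littermates of the heterozygote crosses served as controls. The labels give no age, and the series' design text calls the libraries biological replicates from mice of each genotype.

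Thick filaments are bipolar bundles of myosin. Titin runs from the Z-disc to the M-band and sets out the positions along which myosin and the myosin-binding proteins are laid down, and the myomesins bridge neighbouring thick filaments and the titin ends at the M-band. The myosin head does not fold by itself: UNC45B and HSP90 fold it, and SMYD1, a muscle-restricted lysine methyltransferase, is needed for thick filaments to assemble, as knockdown in zebrafish shows. In cultured myoblasts these genes are switched on as cells leave the cell cycle under MyoD, myogenin and MEF2 factors.

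The promoters below are shown because the 9 genes are switched on together in myogenesis. RefSeq entries (build GRCm38.p6) were found for 8 of the 9 genes, all but Myom2, and 250 bases before the start of each were read. Both strands were searched for the E-box CANNTG, which myogenic bHLH factors bind. Its forms CAGCTG and, separately, CAGGTG were counted again on their own. The MCAT element CATTCC, which TEAD factors bind, was searched as well, with the TATA box as TATAAA and the MEF2 motif. Capitals mark every match, and the strand shown is that of the gene.

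Ttn: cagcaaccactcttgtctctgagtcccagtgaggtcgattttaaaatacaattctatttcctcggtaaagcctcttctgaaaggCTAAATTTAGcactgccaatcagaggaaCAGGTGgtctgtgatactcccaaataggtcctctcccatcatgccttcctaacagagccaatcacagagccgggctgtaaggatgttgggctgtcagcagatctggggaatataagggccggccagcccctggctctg
Myom3: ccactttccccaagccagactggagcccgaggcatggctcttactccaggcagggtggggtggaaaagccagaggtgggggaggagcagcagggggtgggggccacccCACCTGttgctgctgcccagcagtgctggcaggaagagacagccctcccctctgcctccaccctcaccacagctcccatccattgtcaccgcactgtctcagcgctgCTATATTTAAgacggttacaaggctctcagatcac
Mybph: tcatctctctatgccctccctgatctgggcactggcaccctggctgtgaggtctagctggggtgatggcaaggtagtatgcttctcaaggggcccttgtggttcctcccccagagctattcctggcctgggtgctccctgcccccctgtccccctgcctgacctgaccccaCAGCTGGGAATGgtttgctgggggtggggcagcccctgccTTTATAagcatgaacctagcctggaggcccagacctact
Smyd1: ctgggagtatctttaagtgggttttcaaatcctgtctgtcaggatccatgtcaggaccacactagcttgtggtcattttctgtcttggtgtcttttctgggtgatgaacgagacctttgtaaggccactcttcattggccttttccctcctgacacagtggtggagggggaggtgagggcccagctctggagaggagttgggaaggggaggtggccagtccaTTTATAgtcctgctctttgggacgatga

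These stretches lie at chr2:76982548-76982797 (minus strand) for Ttn, chr4:135759465-135759714 (plus) for Myom3, chr1:134193198-134193447 (plus) for Mybph and chr6:71262282-71262531 (minus) for Smyd1. The start that the promoter table uses for Myom3 lies inside the gene span given below, and the Ttn and Mybph stretches overlap the edge of theirs, so these are stretches before 1 listed start and not before the outermost one. The printed stretches hold no exon of the GENCODE vM1 annotation, checked by matching the letters to the build of that annotation, and the Unc45b stretch, which does, is not printed. A CANNTG was present in 7 of the 8 promoters, against 66.2% of all 32841 promoters of the same length, and Smyd1 was the one without a match in this window. The MEF2 motif was present in 2 of the 8, in Ttn as CTAAATTTAG from base -166 and in Myom3 as CTATATTTAA from base -35, against 2.92% of all promoters. In Mybph an E-box CAGCTG from base -79 was followed directly by GGAATG, the reverse complement of CATTCC, from base -73. CATTCC was present in 2 of the 8 promoters, against 12.6% of all, and TATAAA in 2 of the 8, against 12.4% of all. CAGGTG was present in 4 of the 8 and CAGCTG in 2 of the 8, against 17.2% and 13.0% of all promoters.

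Library totals ran from 16742457 to 22835394 counts, with 14835 genes tested. Hdac11 itself was at 33.5, 76.4 and 30.2 CPM (counts relative to library size, scaled by edgeR's TMM factors) in KO-labelled libraries 1 to 3, against 63.0, 79.5 and 73.8 CPM in WT libraries 1 to 3. The library labelled KO replicate 2 was thus within the WT range, and values without it are given below. Whether exon 3 is absent there cannot be read from counts per gene. KO replicate 3 and WT replicate 1 had a male pattern of Xist and Y-linked counts and the other 4 libraries a female pattern. In the edgeR quasi-likelihood fit, 0% of tested genes passed an adjusted p (Benjamini-Hochberg over all tested genes) of 0.05 in either direction, while 7.83% were lower and 9.88% higher in KO at an unadjusted p under 0.05. DESeq2, run as an alternative, called 2.21% of its genes lower in KO and 4.17% higher.

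Every one of the 8 tested genes had a lower mean in KO than in WT, by 2.36-fold (Smyd1) to 4.37-fold (Mybpc1) in the edgeR fit, with a median log2 fold change of -1.50; of all tested genes, 50.8% had a lower fitted mean in KO. The 8 had at least 143 counts in every library, and Mybpc2 did not pass the filter on low counts. None of the 8 passed edgeR's adjusted threshold (adjusted p from 0.204 to 0.312). At an unadjusted p under 0.05, 7 of the 8 were lower and 0 higher, where 7.83% of all tested genes were lower. DESeq2 called 6 of the 9 lower, against 2.21% of all genes, and the authors' deposited table called 5 of the 9 lower, against 2.13%. These shares are of genes with an adjusted p, which Mybpc1 lacked in both and Mybpc2 in the authors' deposited table. The DESeq2 calls include Mybpc2, whose call rests on WT replicate 3. At its adjusted threshold limma-voom called 0, and it had 8 lower at an unadjusted p under 0.05, against 7.19% of all genes. The spread within groups was of the same size as the difference between them: the highest WT library was 2.06 to 4.39 times the lowest for the 8 tested genes, and the highest KO library 1.90 to 11.6 times the lowest. In bulk RNA, fewer cells that had begun to differentiate and less of each RNA per cell cannot be told apart.

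**Figure D1:**
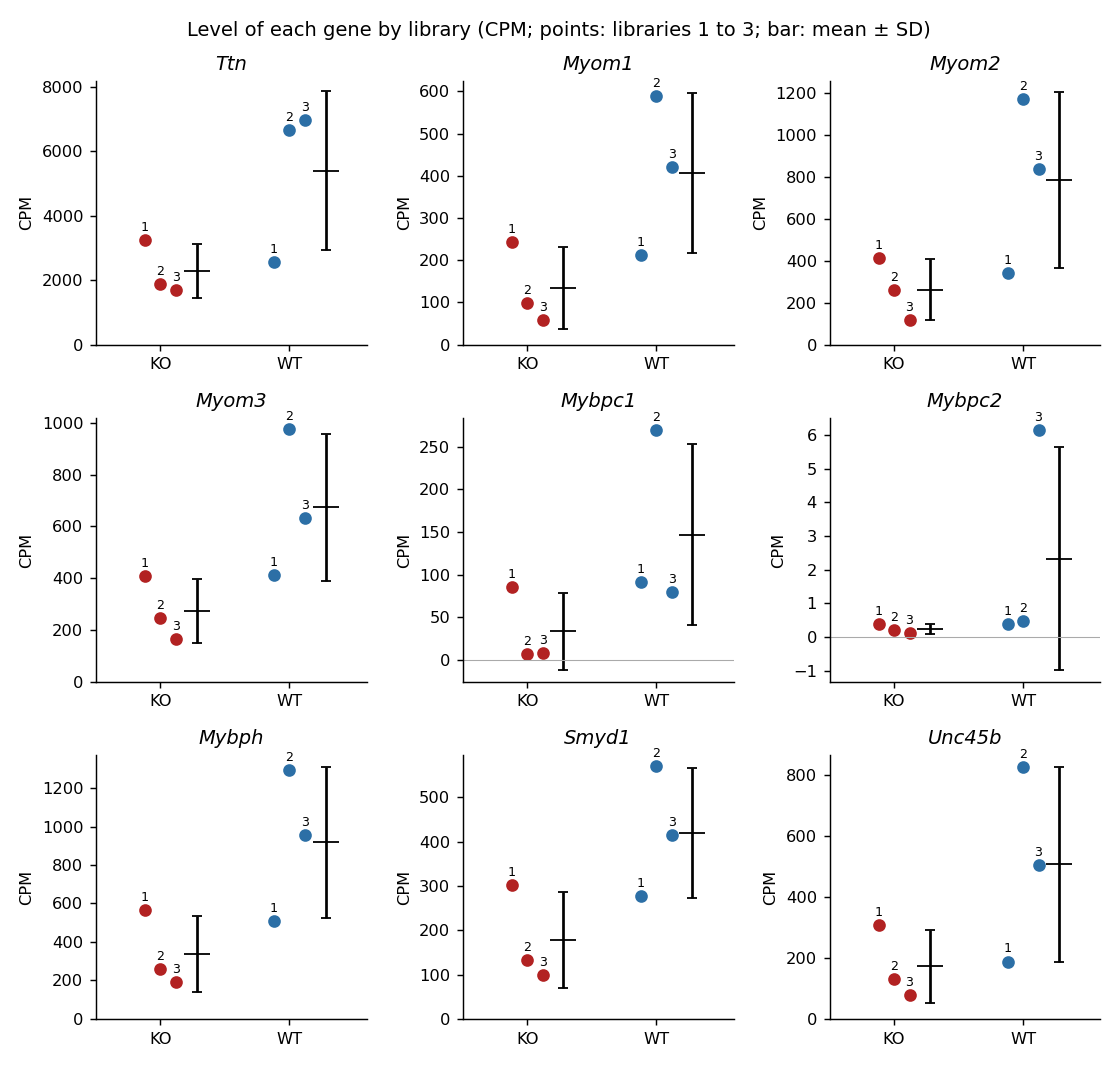
CPM of each of the 9 genes in the 3 KO (red) and 3 WT (blue) libraries, numbered by replicate, with the mean and SD of each group as a black bar. KO replicate 1 is the highest KO library in all 9 panels, WT replicate 1 the lowest WT library in 8, and only Myom3 has all KO libraries below all WT libraries.

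Titin, whose gene spans bases 76703980 to 76982557 of chromosome 2 (GRCm38.p6, as are all gene positions here), was at 3242, 1890.1 and 1709 CPM in KO-labelled libraries 1 to 3, against 2568, 6665 and 6978 CPM in WT libraries 1 to 3. The groups overlapped, because KO replicate 1 was above WT replicate 1. The mean was 2280.3 ± 837 CPM in KO and 5403 ± 2461 CPM in WT (SD, n = 3 each). The log2 fold change of Ttn was -1.24 (SE 0.43, edgeR adjusted p = 0.220), and -1.58 without KO replicate 1. DESeq2 gave Ttn an adjusted p of 0.0411, and it was 0.0415 as the authors' deposited table has it. Titin had the narrowest spread among KO libraries of the 9 genes, 1.90 times from lowest to highest.

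The 3 myomesin genes encode the cross-linkers of the M-band. Myom1 (chromosome 17, bases 71003332 to 71126856) encodes myomesin, present in striated muscle of all types. It was at 244, 98.2 and 59.4 CPM in KO-labelled libraries 1 to 3, against 212, 589.8 and 420.5 CPM in WT libraries 1 to 3. KO replicate 1 again lay above WT replicate 1, and the remaining KO libraries lay below every WT library. The Myom1 mean was 134 ± 97.1 CPM in KO and 407 ± 189 CPM in WT (SD, n = 3 each), a log2 fold change of -1.61 (SE 0.56). Its edgeR adjusted p was 0.222, its DESeq2 adjusted p 0.0344, and its range with each library left out -2.37 to -1.23.

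Myom2 (chromosome 8, bases 15057653 to 15133420) encodes M-protein, the myomesin of fast fibres and heart. Its values were 410.1, 262 and 115 CPM in KO-labelled libraries 1 to 3, against 339.5, 1169.9 and 838 CPM in WT libraries 1 to 3, so that the groups overlapped through the first library of each. The mean of Myom2 was 262 ± 147 CPM in KO and 782 ± 418 CPM in WT (SD, n = 3 each). Its log2 fold change was -1.58 (SE 0.56) with an edgeR adjusted p of 0.223 and a DESeq2 adjusted p of 0.0350. With each library left out it ran from -2.05 to -1.17.

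Myom3 (chromosome 4, bases 135758800 to 135815571), which encodes the third myomesin, was the member whose KO and WT libraries did not overlap. It was at 409, 246 and 164 CPM in KO-labelled libraries 1 to 3, against 414, 976 and 633 CPM in WT libraries 1 to 3. The margin was narrow, since KO replicate 1 and WT replicate 1 were nearly level. Its mean was 273 ± 125 CPM in KO and 674 ± 283 CPM in WT (SD, n = 3 each), and its log2 fold change -1.30 (SE 0.41, edgeR adjusted p = 0.204). Of all tested genes, 10.2% were lower in KO without overlap, so that 1 of 8 tested genes is near the background. The DESeq2 adjusted p of Myom3 was 0.0284, and its edgeR log2 fold change ran from -1.71 to -0.94 with each library left out.

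The myosin-binding proteins sit in stripes along the thick filament. Mybpc1 (chromosome 10, bases 88518279 to 88605229) encodes the slow-muscle form of myosin-binding protein C. It was at 85.4, 7.38 and 8.08 CPM in KO-labelled libraries 1 to 3, or 1716, 165 and 143 counts, against 91.3, 269 and 80.4 CPM in WT libraries 1 to 3. KO replicate 1 stood at the level of WT replicates 1 and 3, and the other KO libraries far below it, the widest KO spread of the tested genes at 11.6 times. The mean was 33.6 ± 44.9 CPM in KO and 147 ± 106 CPM in WT (SD, n = 3 each). The log2 fold change of Mybpc1 was -2.13 (SE 1.00, edgeR adjusted p = 0.312), the only tested gene of the 8 with an unadjusted p above 0.05 (0.0678). It was -4.25 without KO replicate 1 and -1.35 without WT replicate 2. DESeq2 and the authors' deposited table gave Mybpc1 no p.

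Mybpc2 (chromosome 7, bases 44501699 to 44524715), the gene of the fast-muscle form, was near the detection limit. It had 8, 5 and 2 counts in KO-labelled libraries 1 to 3, against 9, 8 and 116 counts in WT libraries 1 to 3. Only WT replicate 3 stood apart, and the gene did not pass edgeR's filter on low counts. DESeq2, which was run without that filter, called Mybpc2 lower with a log2 fold change of -3.24 (adjusted p = 0.0414). Without WT replicate 3 the DESeq2 log2 fold change was -0.80, with an unadjusted p of 0.464 and no adjusted p, so the call rests on that library. In the authors' deposited table Mybpc2 had a log2 fold change of -1.43 and no p. For members with a p, fold changes there were smaller in size than in DESeq2 at nearly the same p, so these sizes are not compared. For Ttn they were -1.06 (authors' deposited table, unadjusted p = 0.00232) and -1.25 (DESeq2, unadjusted p = 0.00230).

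Mybph (chromosome 1, bases 134193418 to 134201237) encodes the shorter myosin-binding protein H. It was at 564, 262 and 192 CPM in KO-labelled libraries 1 to 3, against 509.7, 1292 and 957 CPM in WT libraries 1 to 3. As for Myom1 and Myom2, the libraries labelled KO replicates 2 and 3 lay below every WT library and KO replicate 1 just above WT replicate 1. Its mean was 339 ± 198 CPM in KO and 919 ± 392 CPM in WT (SD, n = 3 each). The log2 fold change of Mybph was -1.44 (SE 0.48) with an edgeR adjusted p of 0.212 and a DESeq2 adjusted p of 0.0293, and it ran from -2.02 to -1.11 with each library left out.

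The assembly factors also had lower means in KO. Smyd1 (chromosome 6, bases 71213940 to 71262281) was at 302, 133 and 99.2 CPM in KO-labelled libraries 1 to 3, against 277, 570.1 and 415 CPM in WT libraries 1 to 3. The groups overlapped in the same place, between KO replicate 1 and WT replicate 1. The mean was 178 ± 109 CPM in KO and 421 ± 147 CPM in WT (SD, n = 3 each), and the log2 fold change -1.24 (SE 0.45, edgeR adjusted p = 0.232). Neither DESeq2 (adjusted p = 0.0606) nor the authors' deposited table (adjusted p = 0.0612) called Smyd1. Its log2 fold change was -1.85 without KO replicate 1 and -0.93 without KO replicate 3.

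Unc45b (chromosome 11, bases 82911253 to 82943406) was at 307, 131 and 79.0 CPM in KO-labelled libraries 1 to 3, against 188, 826 and 505 CPM in WT libraries 1 to 3. It had the widest WT spread of the tested genes, 4.39 times. The mean of Unc45b was 172 ± 119.7 CPM in KO and 507 ± 319 CPM in WT (SD, n = 3 each). Its log2 fold change was -1.56 (SE 0.63) with an edgeR adjusted p of 0.263 and a DESeq2 adjusted p of 0.0695, and the authors' deposited table held 0.0699. It was -2.27 without KO replicate 1 and -1.01 without WT replicate 2. Unc45a, the paralog expressed in many tissues, was at 63.1, 68.0 and 56.4 CPM in KO and at 60.2, 59.0 and 58.6 CPM in WT, a log2 fold change of 0.08 (SE 0.14).

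**Figure D2:**
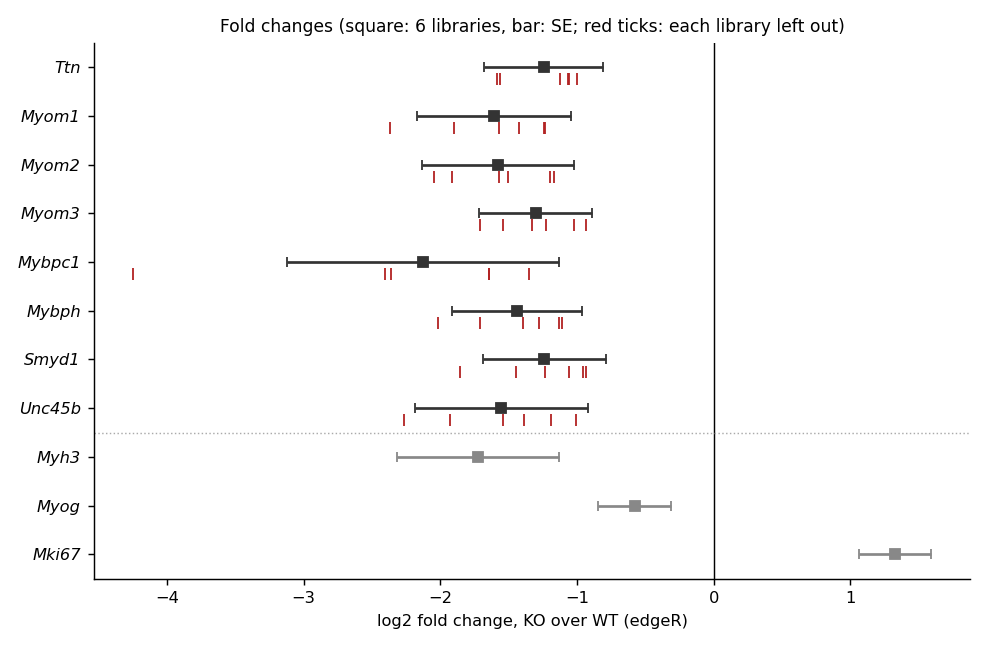
Log2 fold change of KO over WT for the 8 tested genes (black squares, bar: SE) with the value after leaving out each of the 6 libraries in turn (red ticks), and for Myh3, Myog and Mki67 (grey). All ticks of the 8 genes lie below 0, from -4.25 for Mybpc1 without KO replicate 1 to -0.93 for Smyd1 without KO replicate 3.

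Which libraries were left out decided the count of genes past the unadjusted threshold. Without the library labelled KO replicate 2, edgeR had 0 of 8 lower at an unadjusted p under 0.05, where 6.02% of all tested genes were. Leaving out KO replicate 3 or WT replicate 2 in turn, the count was 1 of 8 each (2.84% and 3.47% of all genes), and without WT replicate 3 it was 2 of 8 (6.65%). Without KO replicate 1 it was 8 of 8 and without WT replicate 1 it was 7 of 8 (8.07% and 9.84% of all genes). DESeq2 called 8, 0 and 0 of the 9 lower without KO replicates 1, 2 and 3 in turn, where it called 3.83%, 1.09% and 0.26% of all genes lower. Without WT replicates 1, 2 and 3 in turn it called 8, 1 and 0 of the 9 lower, against 4.75%, 0.302% and 1.42% of all genes. The log2 fold change of each of the 8 was negative in all of these edgeR fits. Scaled by library totals alone, 7 of the 8 were lower at an unadjusted p under 0.05, against 4.72% of all genes. Without the library labelled KO replicate 2 the values were -1.12 for Ttn, -1.42 for Myom1, -1.57 for Myom2, -1.23 for Myom3, -1.65 for Mybpc1, -1.28 for Mybph, -1.06 for Smyd1 and -1.39 for Unc45b.

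The male-pattern library was the lowest KO library for 8 of the 9 genes and the lowest WT library for 8 of the 9 genes. Set against libraries of the same pattern, a comparison chosen after seeing the data, KO replicate 3 was below WT replicate 1 for 9 of the 9 genes, where 49.6% of all tested genes were. KO replicates 1 and 2 were both below WT replicates 2 and 3 for 8 of the 9, all but Mybpc1, where 22.9% of all tested genes were. Both held for 8 of the 9, against 16.5% of all tested genes. These counts include Mybpc2, which was not among the tested genes that the shares cover. It had 8 counts in both KO replicate 1 and WT replicate 2, so its order there rests on scaling. Myom2 averaged 336 CPM in the female-pattern KO libraries and 1004 CPM in the female-pattern WT libraries, and was at 115 CPM in the male-pattern KO library and 339.5 CPM in the male-pattern WT library. Ttn averaged 2566 CPM in female-pattern KO and 6821 CPM in female-pattern WT libraries, and was at 1709 CPM in the male-pattern KO and 2568 CPM in the male-pattern WT library. With sex as a covariate the edgeR adjusted p was 0.0607 for Myom2, 0.0741 for Myom3, 0.0803 for Myom1, 0.0810 for Mybph, 0.0931 for Unc45b, 0.102 for Smyd1, 0.107 for Ttn and 0.218 for Mybpc1, with none under the threshold and all 8 at an unadjusted p under 0.05 (9.29% of all genes were lower at that level). Sex and other properties of the male-pattern libraries, which are 1 per group, cannot be told apart.

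**Figure D3:**
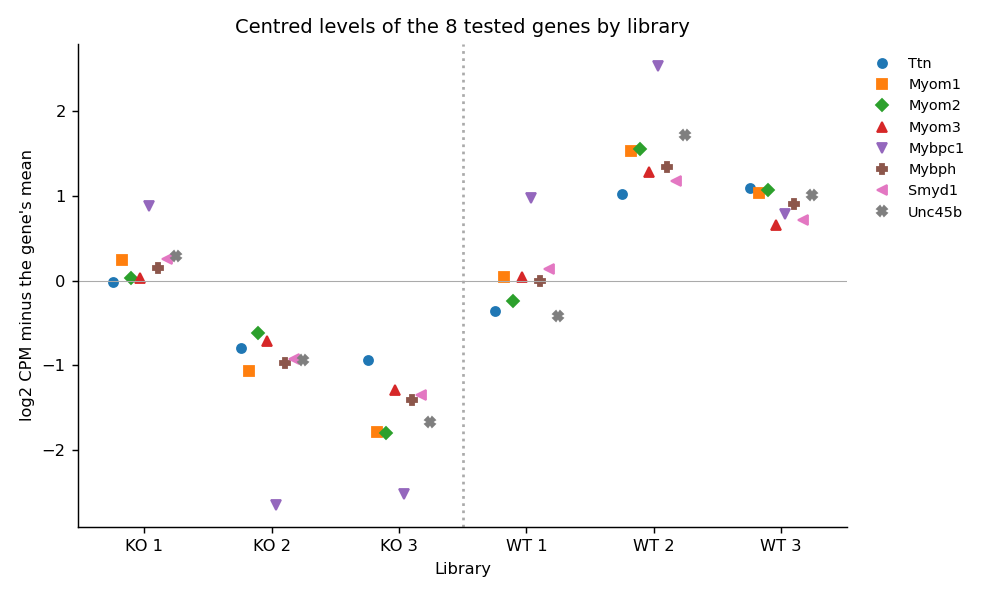
Log2 CPM of the 8 tested genes minus each gene's own mean over the 6 libraries, with 1 symbol per gene. KO replicates 2 and 3 lie below 0 and WT replicates 2 and 3 above 0 for all 8 genes, while KO replicate 1 and WT replicate 1 lie between -0.41 and 0.29 except for Mybpc1.

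The 8 tested genes varied together over the 6 libraries. Over their 28 pairs Pearson's r of log2 CPM ran from 0.82 to 1.00 with a median of 0.97, given as a description, since every pair rests on the same 6 libraries. Among all other tested genes with a mean of at least 5 CPM, those whose log2 CPM was most like the mean profile of the 8 were Usp28, Srl, B3galt2, Trim72 and Tgfb3 (r of 0.999, 0.998, 0.998, 0.997 and 0.996 over 6 libraries). Srl encodes sarcalumenin of the sarcoplasmic reticulum and Trim72 encodes MG53, a membrane repair protein of muscle. Srl was at 1003, 409 and 254 CPM in KO-labelled libraries 1 to 3, against 805, 2324 and 1499 CPM in WT libraries 1 to 3, the order of libraries seen for Myom1 and Mybph. Usp28, a deubiquitinase, was at 164, 101 and 79.6 CPM in KO and at 158, 290.4 and 225 CPM in WT. Embryonic myosin heavy chain, Myh3, followed the same profile (r = 0.98). Myog, the gene of myogenin, followed it less closely (r = 0.72), and the proliferation gene Mki67 ran against it (r = -0.82).

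Compared per length of the longest annotated transcript (GENCODE vM1), Mybph stood highest of the 9 in both groups, at 186 ± 108 CPM per kb in KO and 503 ± 215 in WT (SD, n = 3 each). Its lowest library was above the highest library of the next gene in both groups. Myom2, Smyd1, Unc45b and Myom3 came next, at 51.7, 53.0, 41.5 and 49.0 CPM per kb in KO and at 154, 125, 122 and 121 in WT. Neighbours among these overlapped in both groups, so that their order is not resolved. Myom1 and Ttn followed at 23.9 and 21.3 CPM per kb in KO and 72.7 and 50.6 in WT. The Ttn transcript taken was 106824 nt long. Mybpc1 was at 8.58 CPM per kb in KO and 37.5 in WT, and Mybpc2 was lowest at 0.0686 in KO and 0.653 in WT, below every library of Mybpc1. The transcript length in use in these cells was not measured, which bears most on Ttn, whose annotated transcripts differ widely.

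**Figure D4:**
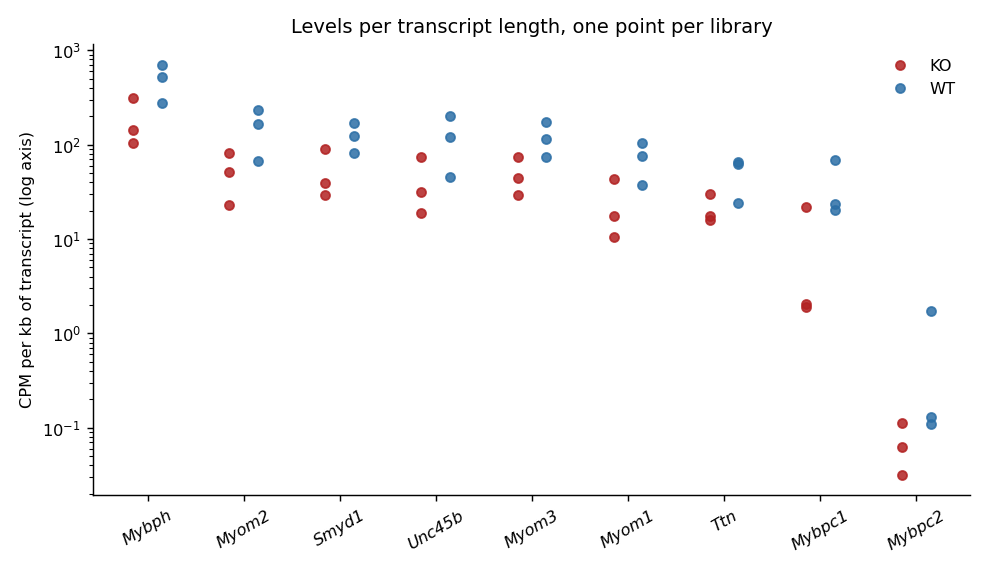
CPM per kb of the longest annotated transcript on a log axis, with 1 point per library, KO in red and WT in blue. Mybph lies above and Mybpc2 below the other genes in both groups, and the levels of Myom2, Smyd1, Unc45b and Myom3 overlap.

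Balances between members were compared as log2 ratios of counts within each library, which do not depend on scaling, for 7 pairs. The log2 ratio of Ttn to Myh3 was -1.78, -1.27 and -1.10 in KO-labelled libraries 1 to 3, against -1.74, -2.20 and -1.83 in WT libraries 1 to 3. The groups overlapped, and the difference of the means was 0.54 (exact two-sided permutation p = 0.2, adjusted over the 7 ratios 0.7). The ratio of Myom3 to Myom1 was 0.75, 1.32 and 1.47 in KO and 0.97, 0.73 and 0.59 in WT, a difference of 0.42 (exact permutation p = 0.2, adjusted 0.7). For Unc45b to Myh3, the chaperone to a client, the ratio was -5.18, -5.12 and -5.53 in KO and -5.51, -5.21 and -5.61 in WT, a difference of 0.17 (exact permutation p = 0.3, adjusted 0.7). Differences were 0.15 for Myom2 to Myom1, 0.20 for Smyd1 to Unc45b, -0.73 for Mybpc1 to Mybpc2 and 0.64 for Mybph to Mybpc2 (exact permutation p = 0.6 to 0.8, adjusted 0.8 for each). With 3 libraries against 3 the smallest p is 0.1, so no ratio could pass.

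Most of the other tested thick filament genes, and of the tested partners of titin and the M-band, lay on the same side as the 9. Of 12 tested genes of the thick filament backbone, 11 had a negative log2 fold change, with a median of -1.74. At an unadjusted edgeR p under 0.05, 6 were lower and 0 higher, where 7.83% and 9.88% of all tested genes were. Myl1, Myl4 and Mylpf, light chains of fast and embryonic muscle, had log2 fold changes of -1.77, -1.58 and -1.46 (edgeR, SE 0.58, 0.50 and 0.47). Myl2 encodes the regulatory light chain of slow muscle and heart. It was at 0.299, 0.0447 and 0.0565 CPM in KO and at 0.517, 3.09 and 2.81 CPM in WT. These were 6, 1 and 1 counts in KO and 12, 53 and 53 in WT, near the detection limit. Myl2 passed the filter on low counts through its WT values, so its fold change and lack of overlap are not read as a result. It is nevertheless counted among the 11 negative, the 6 lower and the DESeq2 calls of this list given below. It was the 1 gene of the 12 lower without overlap, against 10.2% of all tested genes. Myh6, a cardiac myosin heavy chain, was the exception with 14.1, 1.52 and 0.791 CPM in KO and 0.388, 1.63 and 2.17 CPM in WT. Its log2 fold change was 1.98 (SE 1.11), with KO replicate 1 holding the high value.

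Of 17 tested partners of titin and the M-band, 15 had a negative log2 fold change, with a median of -1.19. At an unadjusted edgeR p under 0.05, 8 were lower and 0 higher, where 7.83% and 9.88% of all tested genes were. Without overlap, 4 of the 17 were lower, against 10.2% of all tested genes. Trim55, a ubiquitin ligase at the M-band, did not overlap, at 240, 167 and 124 CPM in KO and 336, 449.6 and 259 CPM in WT. Ckm, the muscle creatine kinase bound there, was also without overlap, at 161, 57.7 and 26.9 CPM in KO and 193, 303 and 284 CPM in WT. The titin-binding Fhl2 and Ankrd1 stood at log2 fold changes of 0.38 and 0.07. Of both lists together, 0 genes in edgeR passed the adjusted threshold. DESeq2 called 5 lower and 0 higher in each, against 2.21% and 4.17% of all its genes.

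The general chaperones that work with UNC45B had fold changes on both sides of 0. Over 10 tested folding partners the median log2 fold change was -0.05, with 5 negative and 5 positive. At an unadjusted edgeR p under 0.05, 1 was lower and 1 higher, where 7.83% and 9.88% of all tested genes were. Hsp90aa1 and Hsp90ab1 had log2 fold changes of -0.10 (SE 0.24) and -0.13 (SE 0.22). The lower one was Naca, whose muscle splice form skNAC binds SMYD1, at 1012, 831 and 820 CPM in KO and 1129, 1712 and 1486 CPM in WT. Naca was the 1 gene of the 10 lower without overlap, where 10.2% of all tested genes were, and DESeq2 called it lower. A gene count does not separate skNAC from the ubiquitous form. The higher one was Fkbp5, an HSP90 co-chaperone, at 20.8, 18.7 and 26.3 CPM in KO and 12.3, 8.09 and 10.5 CPM in WT, called higher by DESeq2. The other 4 Smyd genes had log2 fold changes of -0.32 to 0.43, 0 of them at an unadjusted p under 0.05, and edgeR and DESeq2 called 0.

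**Figure D5:**
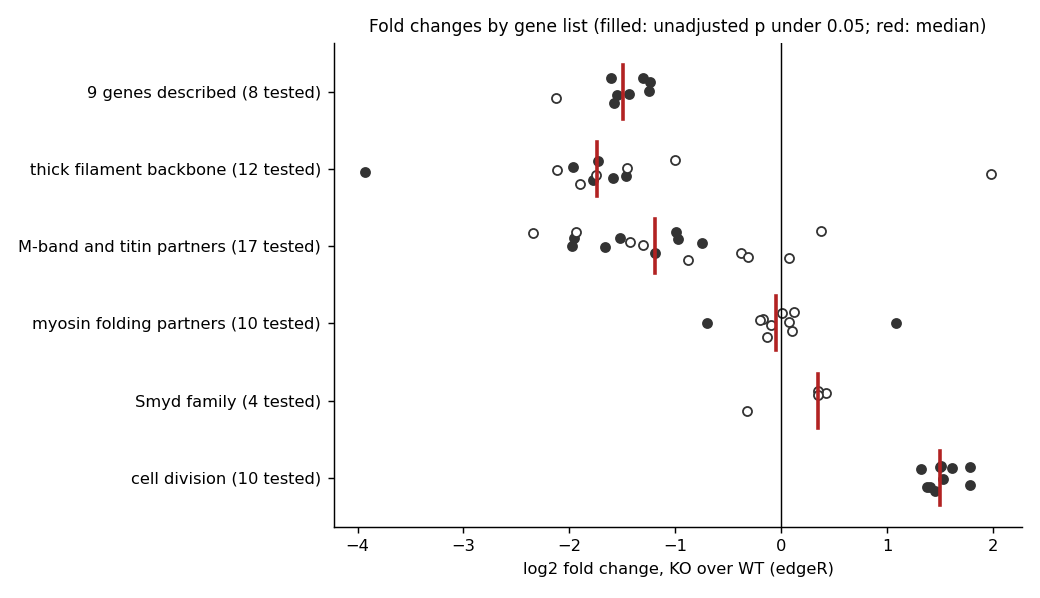
Log2 fold change of KO over WT for each tested gene of 6 lists, filled where the unadjusted edgeR p is under 0.05, with the list median in red. The 9 genes described, the thick filament backbone and the partners of titin and the M-band lie mostly below 0. Folding partners and the other Smyd genes lie on both sides of 0, and cell division genes above 0.

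Markers of other cell states and types are given beside these values. Cell division genes summed to 1022 to 1560 CPM in KO libraries and 328 to 579.8 CPM in WT libraries, and 10 of 10 were higher without overlap, where 13.2% of all tested genes were. Myog was at 1780.2, 1624 and 970.3 CPM in KO and 2511, 2018 and 2005 CPM in WT. It was lower without overlap, where 10.2% of all tested genes were. Of 6 fibroblast markers 5 were in the table, with a sum of 627 to 773 CPM in KO and 333 to 544 CPM in WT, nearly all of it Col3a1, while Dcn was at most 0.249 CPM in KO and 1.25 CPM in WT. Endothelial markers summed to at most 4.01 CPM. Of 6 macrophage and leukocyte markers 4 were in the table, without Ptprc and Adgre1, and they summed to at most 6.31 CPM. Csf1r and Lyz2 were at most 0.116 CPM in any library. Cd14 was at 0.747, 1.61 and 1.36 CPM in KO and 0.388, 0.291 and 0.741 CPM in WT, higher without overlap. These were 15, 36 and 24 counts in KO and 9, 5 and 14 in WT, near the detection limit. Cd14 passed the filter on low counts through its KO values, so its lack of overlap is not read as a result. Cd68 averaged 3.44 CPM in KO and 2.24 CPM in WT, with overlap. Of the Schwann cell list S100b was at most 0.226 CPM in any library, and the list's sum of 459 to 1055 CPM in KO and 960.1 to 2281 CPM in WT was nearly all Ncam1, which muscle cells also express. Smooth muscle and pericyte markers summed to 290.5 to 374 CPM in KO and 231 to 338 CPM in WT, mostly Notch3. The part of these markers in the values of the 9 genes was not tested.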

How the data were processed

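Counts of 6 poly(A) libraries were used as deposited. The authors' raw counts per gene were not normalized; the build GRCm38 and, in no stated order, featureCounts, DESeq2, Bowtie2, TopHat2 2.0.8, Trimmomatic and FastQC are listed in the submitters' processing notes. For their settings, nothing is given in the sources used here. As for the deposited normalized columns, they are a signal, raw counts divided by a size factor per library, and were not used. The deposited log2 fold changes with errors, test score and p-values are the authors' own; for 7268 genes the adjusted p was missing there and stayed missing when that table was used.

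Genes were kept with filterByExpr by group (14835 of 21778), scaled by TMM and fitted without covariates in edgeR 4.0.16 (quasi-likelihood F test, R 4.3.3). Standard errors were derived from the F statistic. Alternatives were limma-voom (limma 3.58.1) and DESeq2 1.42.0, which saw all genes. Log2 CPM used a prior count of 2, and ratios a pseudocount of 0.5. The code of the fits was checked on counts simulated with the same dispersion for every gene and no sex difference. That check does not bear on the calls at the spread of these libraries. No libraries were near-identical: counts differed well beyond sampling noise. Since no label ties the libraries to single animals, p-values measure the spread between these libraries.

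The 9 genes and all lists were chosen with earlier results of these data known. Named genes were the 9, Hdac11, Myog, Myh3 and Mki67, the 5 most alike genes and, per list, up to 4 genes with the smallest p and those at the extremes; Unc45a, Hsp90aa1, Hsp90ab1, Ankrd1, Ckm, Myod1, Mef2c and the marker genes were named after their values were seen. Totals of 16742457 to 22835394 counts limit precision for low genes such as Mybpc2. Promoters are from RefSeq (GRCm38.p6) and transcript lengths from GENCODE vM1, whose mm9 coordinates were used only to check promoter stretches for exons. Some members of the lists are counted but not reported here by name.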

Additional observations from a re-analysis of the deposited data

How the results depend on the processing

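All 203 fold changes of the 9 genes over all settings were negative, and in edgeR settings their adjusted p ran from 0.0607 (Myom2 with a sex covariate) to 0.668 (Mybpc1 without WT replicate 2). With library totals as the scale, all genes had a median of 0.14 (log2). For the differences that follow, the cause was not tested. Same-numbered deviations of KO and WT libraries correlated at -0.25 to 0.05. These values show no pairing by replicate number, and they cannot exclude one. The genes lower in KO among the 9 numbered 0 in edgeR, 6 with DESeq2, 5 in the authors' deposited table and 3 with a replicate block in DESeq2, and with DESeq2 from 0 to 8 when each library was left out (8 without KO replicate 1 or WT replicate 1, 1 without WT replicate 2, that 1 being Mybpc2). At an unadjusted p in edgeR they numbered 0 to 8 with each library left out (8, 0 and 1 without KO replicates 1, 2 and 3 in turn, 7, 1 and 2 without WT replicates 1, 2 and 3). Over all genes, higher and lower calls numbered 608 and 322 with DESeq2, 624 and 325 with the replicate block in DESeq2, 609 and 309 in the authors' deposited table, and in DESeq2 504, 585 and 175 higher and 558, 159 and 39 lower without KO replicates 1, 2 and 3 in turn, and 810, 326 and 575 higher and 712, 44 and 207 lower without WT replicates 1, 2 and 3. By contrast, 0 were called in each direction in all edgeR and limma-voom settings run. The Hdac11 log2 fold change passed only in DESeq2 without the library labelled KO replicate 2, at -1.18 (adjusted p = 3.67e-05). With each library left out, ratio differences that changed sign ran from -0.033 (without KO replicate 2) to 0.30 (without KO replicate 1) for Myom2 to Myom1, from -2.31 (without WT replicate 3) to 0.38 (without WT replicate 2) for Mybpc1 to Mybpc2, from -0.54 (without WT replicate 3) to 1.501 (without WT replicate 2) for Mybph to Mybpc2, and from -0.026 (without WT replicate 2) to 0.52 (without WT replicate 1) for Smyd1 to Unc45b. Depth was not varied; it limits Mybpc2, which had at most 9 counts in 5 of 6 libraries.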

Other observations

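Beside the thick filament genes, 11 of the 12 tested markers of myogenic progress had a negative log2 fold change, and 1, Pax7, a positive one. The median was -0.56. Of the 12, 6 were lower and 1 higher without overlap, against 10.2% and 13.2% of all tested genes. Pax7, the transcription factor of satellite cells, was at 82.3, 109 and 127 CPM in KO and at 54.6, 69.7 and 77.0 CPM in WT, without overlap and with a log2 fold change of 0.66 (SE 0.21). Des, the gene of the intermediate filament desmin, was at 1369.8, 852 and 852 CPM in KO and at 1768, 2055 and 1833 CPM in WT, also without overlap. Myod1 was at 922, 1206 and 1062 CPM in KO and at 1329, 1076 and 892 CPM in WT, with overlap. Mef2c was at 191, 57.8 and 72.4 CPM in KO and at 74.4, 768 and 321 CPM in WT, with KO replicate 1 the highest KO library and WT replicate 1 the lowest WT library. Myf6 was at 3.14, 0.760 and 0.565 CPM in KO and at 13.6, 36.9 and 2.75 CPM in WT, with overlap. Its log2 fold change was -3.57 (SE 1.02), and that of Mef2d, without overlap, was -0.69 (SE 0.21). In edgeR 0 of the 12 genes of this list passed the adjusted threshold. At the unadjusted level of 0.05, 6 were lower and 1 higher, where 7.83% and 9.88% of all tested genes were. DESeq2 called 3 lower and 0 higher, against 2.21% and 4.17% of all its genes. Ckm belongs both to this list and to the partners of titin and the M-band, and is counted in each.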
